A study of Homo sapiens with 6 samples.

Results

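The 10 genes described here are targets of the hypoxia-inducible factors (HIF) outside glycolysis. They comprise genes of feedback and chromatin (*EGLN1*, *EGLN3*, *KDM3A* and *ANKRD37*), the mitophagy receptors *BNIP3* and *BNIP3L*, the secreted signals *VEGFA* and *ADM*, the stress gene *NDRG1* and the collagen hydroxylase gene *P4HA1*. They were given as a list of symbols, matched to Ensembl identifiers, and are 10 of the 60609 genes in each count file. All 10 passed the filter on low counts and were among the 20725 genes tested. The genes were selected on the differences in counts and TPM between S767 and DMSO within each replicate number as well as on their role, so the values of that comparison, and the counts of these genes past any limit, are given as a description and not as a test of them.

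The cells were OCI-AML5, an established line from a human acute myeloid leukemia, grown here in αMEM with serum and GM-CSF. Polyadenylated RNA was sequenced in stranded libraries, 3 from cells exposed to DMSO, the solvent, and 3 from cells exposed to 1 μM S767, a small molecule, both for 24 hours. The genotype of the line is the same in both groups, and a single cell line and a single dose and time were sampled. The labels number the libraries of each group 1 to 3 without saying what a number shares or whether the cultures were separate, so the spread between libraries may be technical in part.

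In cells with enough oxygen, the prolyl hydroxylases of the EGLN family mark the HIF alpha subunits for destruction by the VHL ubiquitin ligase, using iron, oxygen and 2-oxoglutarate. When these enzymes slow, for lack of oxygen or of iron, HIF alpha pairs with ARNT and binds a short motif, the hypoxia response element, beside its target genes. Several targets encode oxygen- and iron-dependent hydroxylases and demethylases themselves, so that the pathway renews its own sensors, while others remove mitochondria, recruit blood vessels or modify collagen.

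The libraries held 149994700 to 258029564 counts on genes. Libraries with the same replicate number resembled each other across genes. The correlations of their deviations from the group means were 0.754 to 0.872 over 6191 well expressed genes. Every other pairing had a negative value, but centring on group means favours this once the matched value is high, so it adds no support. For the matched correlations the differences below are given within each number, called a pair. Of 8 myeloid leukemia markers, 7 exceeded 1 TPM in every library, and the 8 summed to 520.0 to 587.0 TPM. The exception was *ANPEP*, at 8 to 25 counts per library. Among the 7, *CSF2RA* had 0 strand-specific counts in every library and was included only by its RSEM estimate of 2.9 to 3.89 TPM. Of 10 markers of epithelial, stromal, endothelial, lymphoid and erythroid cells, none exceeded 1 TPM in every library. Their sum was 0.2 to 0.41 TPM, and 3 of them were at 0 counts in every library. Here TPM is a level per transcript length that compares genes, and CPM is the count scaled by the TMM-adjusted library total, which compares libraries within a gene.

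The promoter sequences of 4 of the genes are shown because they hold the core of the hypoxia response element, the letters ACGTG. Promoter windows of 300 bases, from 250 before to 50 after the transcription start, came from RefSeq (GRCh38.p14) and were matched by symbol for 7 of the 10 genes. Each runs 5′ to 3′ on the strand of its gene, and the capitals mark ACGTG or GCGTG on either strand, the reverse being read as CACGT or CACGC. The window of *ANKRD37* lies at chr4:185396591-185396890 on the plus strand, that of *BNIP3* at chr10:131981874-131982173, that of *P4HA1* at chr10:73096817-73097116 and that of *EGLN1* at chr1:231422238-231422537, the last 3 on the minus strand.
ANKRD37: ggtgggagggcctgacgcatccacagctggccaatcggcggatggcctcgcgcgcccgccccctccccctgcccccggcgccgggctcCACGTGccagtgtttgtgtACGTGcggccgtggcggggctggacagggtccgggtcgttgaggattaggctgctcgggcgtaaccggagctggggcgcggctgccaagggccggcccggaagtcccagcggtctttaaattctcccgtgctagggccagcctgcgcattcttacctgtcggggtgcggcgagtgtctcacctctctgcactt
BNIP3: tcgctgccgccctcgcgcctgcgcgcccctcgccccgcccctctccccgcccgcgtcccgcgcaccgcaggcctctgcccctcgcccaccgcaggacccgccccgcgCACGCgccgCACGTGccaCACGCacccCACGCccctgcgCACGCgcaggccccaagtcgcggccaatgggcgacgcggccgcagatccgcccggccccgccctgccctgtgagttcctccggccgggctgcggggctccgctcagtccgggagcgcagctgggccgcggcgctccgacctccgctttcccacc
P4HA1: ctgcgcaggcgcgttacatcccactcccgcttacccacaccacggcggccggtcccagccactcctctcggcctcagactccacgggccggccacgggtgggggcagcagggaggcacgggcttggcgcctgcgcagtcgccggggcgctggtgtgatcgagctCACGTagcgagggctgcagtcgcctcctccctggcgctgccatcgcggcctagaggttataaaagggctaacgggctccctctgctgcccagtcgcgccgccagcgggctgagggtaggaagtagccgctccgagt
EGLN1: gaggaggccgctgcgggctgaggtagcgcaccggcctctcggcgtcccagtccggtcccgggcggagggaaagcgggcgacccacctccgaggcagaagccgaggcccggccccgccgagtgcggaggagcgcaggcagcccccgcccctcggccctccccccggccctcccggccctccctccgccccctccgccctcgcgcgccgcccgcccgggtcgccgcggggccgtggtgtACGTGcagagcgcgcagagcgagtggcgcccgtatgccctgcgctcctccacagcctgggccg

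In the *ANKRD37* window the motif occurred at 162 bases upstream of the start on the minus strand and at 161 on the plus strand, which overlap as a palindrome, and again at 143. The *BNIP3* window held the same palindrome at 134 and 133 bases upstream, flanked by GCGTG on the opposite strand at 143, 125, 116 and 104. *P4HA1* had a single ACGTG at 86 bases upstream on the strand opposite to the gene, and *EGLN1* a single one at 13 on its own strand. ACGTG was present in the windows of 4 of the 7 genes and in 21.4% of all 35116 windows. With GCGTG counted as well, 6 of the 7 genes held a match, since *KDM3A* has GCGTG at 26 bases and *ADM* at 101 bases upstream of a start, compared with 48.4% of all windows. No match was present in the *EGLN3* window. A match describes letters in the window and not a bound site.

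The genes spanned a wide range of levels in the DMSO libraries. *NDRG1*, which encodes a stress-responsive protein of the alpha/beta hydrolase fold, had the highest level per transcript length, 79.0 ± 2.05 TPM (mean ± SD, n = 3). It was followed by *EGLN1* at 37.5 ± 4.21 TPM, *BNIP3* at 33.7 ± 9.12 TPM and *VEGFA* at 32.4 ± 3.21 TPM. The ranges of these 3 genes overlapped from each to the next, so their order was not separated by the spread between libraries. *P4HA1* at 22.7 ± 3.38 TPM, *KDM3A* at 21.4 ± 2.71 TPM and *BNIP3L* at 19.6 ± 7.16 TPM likewise overlapped from each to the next. *ANKRD37* was lower, at 4.35 ± 1.14 TPM, and stood apart from its neighbours in the order. *ADM* at 0.38 ± 0.155 TPM and *EGLN3* at 0.203 ± 0.0321 TPM overlapped and were the lowest. In the S767 libraries the only neighbours of this DMSO order whose ranges overlapped were *P4HA1* and *KDM3A*, at 19.0 ± 1.35 and 17.6 ± 0.407 TPM. The order itself differed there, with *VEGFA* at 29.7 ± 4.66 TPM above *BNIP3* at 22.3 ± 1.14 TPM. The S767 range of *VEGFA*, 25.1 to 34.42 TPM, overlapped that of *EGLN1*, 34.24 to 36.4 TPM.

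**Figure D1:**
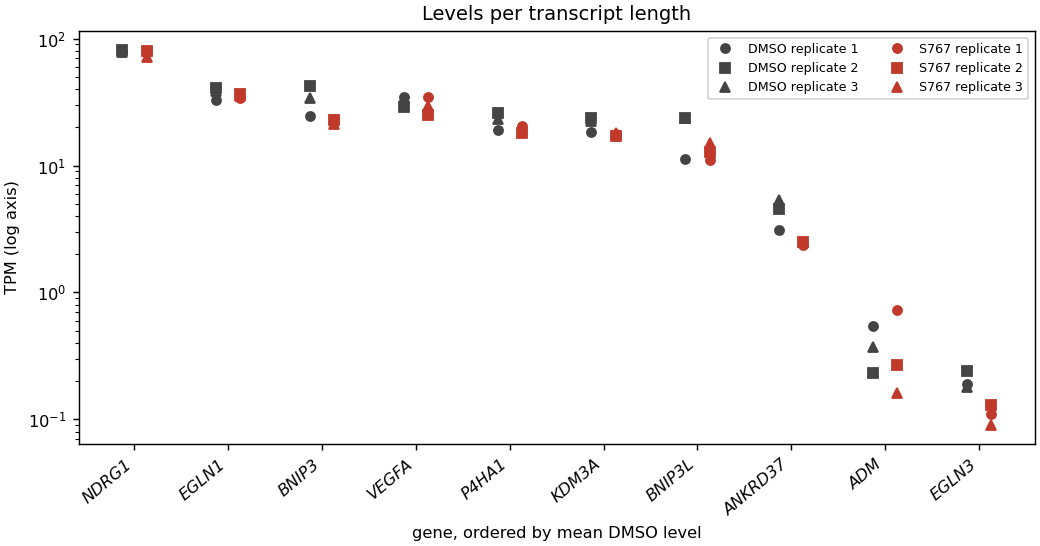
Level of each gene in TPM on a log axis, with genes ordered by their mean in DMSO; each point is 1 library, black for DMSO and red for S767, and the shape gives the replicate number. *NDRG1* lies near 79.0 TPM in DMSO and *EGLN3* near 0.203 TPM, while the S767 points of *BNIP3*, *ANKRD37* and *EGLN3* lie below all DMSO points of the same gene, as do those of *KDM3A* in TPM, though not in CPM.

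*EGLN1* (ENSG00000135766.9; chr1:231363751-231425044, minus strand, GENCODE 29 on GRCh38) encodes PHD2, the main oxygen-sensing HIF prolyl hydroxylase. Its expression was 26.7, 32.6 and 28.1 CPM in DMSO replicates 1, 2 and 3 and 27.0, 30.4 and 26.3 CPM in the corresponding S767 libraries. The groups overlapped throughout, and the fitted log2 fold change was -0.06 (SE 0.085). In bulk RNA of this kind, a change in the level per cell and a change in the share of cells that express a gene cannot be told apart.

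*EGLN3* (ENSG00000129521.14; chr14:33924231-34462774, minus strand) encodes PHD3, a family member that is itself induced by HIF. It was near the lower end of the measured range, with 61, 66 and 101 counts in the DMSO libraries and 56, 44 and 38 in the S767 libraries. In CPM these were 0.279, 0.444 and 0.391 in DMSO and 0.235, 0.246 and 0.193 in S767. Every S767 library was below every DMSO library, and S767 stood at 84.2%, 55.3% and 49.4% of DMSO in pairs 1, 2 and 3. The fitted log2 fold change was -0.71 (SE 0.231). Among all settings tried it ranged from -0.94 to -0.12, the smallest size being on a scale with a pseudocount of 1 TPM that exceeds the level of the gene.

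*KDM3A* (ENSG00000115548.17; chr2:86440647-86492716, plus strand) encodes an iron- and oxygen-dependent demethylase of histone H3 lysine 9. Its expression was 59.5, 77.0 and 71.8 CPM in the DMSO libraries and 57.2, 59.7 and 59.6 CPM in the S767 libraries. The S767 values lay close together, 58.9 ± 1.43 CPM (SD, n = 3), around the value of DMSO replicate 1, while DMSO replicates 2 and 3 lay above. The groups overlapped only through DMSO replicate 1, and the fitted log2 fold change was -0.24 (SE 0.084).

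*ANKRD37* (ENSG00000186352.9; chr4:185396021-185400628, plus strand) encodes a small ankyrin repeat protein and is a direct HIF target. It was measured at 1.84, 2.42 and 2.95 CPM in the DMSO libraries and at 1.26, 1.57 and 1.56 CPM in the S767 libraries. All S767 values were below all DMSO values, and S767 stood at 68.7%, 64.8% and 52.8% of DMSO in the 3 pairs. Its fitted log2 fold change was -0.72 (SE 0.184), next to that of *EGLN3* and not separated from it by the SE, and it was the only one of the 10 whose difference in pair 1, -0.54, passed -0.4. *ANKRD37* overlaps *UFSP2* on the other strand in GENCODE 29. Fragments of the other strand made up 51.9% to 69.4% of those over *ANKRD37*, and with strand ignored the log2 fold change was -0.50.

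*BNIP3* (ENSG00000176171.11; chr10:131966455-131982013, minus strand) and *BNIP3L* (ENSG00000104765.16, also called NIX; chr8:26382898-26505636, plus strand) encode outer mitochondrial membrane proteins that bind LC3 family proteins and hand mitochondria over to autophagosomes. *BNIP3* was at 34.0, 57.0 and 47.4 CPM in the DMSO libraries and at 33.1, 31.6 and 31.4 CPM in the S767 libraries. The S767 libraries lay within 1.05-fold of each other and below all DMSO libraries, whereas the DMSO libraries spanned 1.68-fold. In pair 1 the difference was small, with S767 at 97.2% of DMSO, and in pairs 2 and 3 it was at 55.4% and 66.3%. The fitted log2 fold change was -0.53 (SE 0.154), and from -0.72 without pair 1 to -0.32 without pair 2 in the fits with the pair as a term. Pseudogene copies of *BNIP3* could take some of its reads, and the RSEM estimates, which share out reads that map to several places, gave -0.54.

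*BNIP3L* was at 20.1, 42.6 and 41.8 CPM in the DMSO libraries and at 18.7, 24.9 and 26.7 CPM in the S767 libraries. DMSO replicate 1 stood apart from the other DMSO libraries, which were 2.13- and 2.08-fold higher, and it lay among the S767 values, so the groups overlapped. Within pairs, S767 was at 93.2%, 58.3% and 63.8% of DMSO. The fitted log2 fold change of -0.57 had an SE of 0.261 without the pair as a term, and became -0.52 (SE 0.0871) with it.

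*VEGFA* (ENSG00000112715.22; chr6:43770184-43786487, plus strand) encodes the growth factor that drives angiogenesis. It was at 71.7, 58.7 and 68.5 CPM in the DMSO libraries and 69.2, 55.5 and 62.0 CPM in the S767 libraries. Its values ordered the libraries by replicate number rather than by treatment, since replicate 2 was lowest in both groups and replicate 1 highest. S767 was 96.6%, 94.5% and 90.6% of DMSO in the 3 pairs, and the fitted log2 fold change was -0.09 (SE 0.093). The groups overlapped.

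*ADM* (ENSG00000148926.10; chr11:10304680-10307397, plus strand) encodes the vasodilator peptide adrenomedullin. Its counts were few, 109, 27 and 93 in the DMSO libraries and 167, 44 and 31 in the S767 libraries. These correspond to 0.499, 0.182 and 0.36 CPM in DMSO and 0.701, 0.246 and 0.158 CPM in S767. The pairs differed in direction, with log2 differences of 0.48, 0.42 and -1.14, and the S767 libraries spanned 4.45-fold. The fitted log2 fold change of 0.09 had an SE of 0.537, so no direction can be read for *ADM* at this depth and spread.

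*NDRG1* (ENSG00000104419.14; chr8:133237171-133302022, minus strand) was at 146.8, 162.3 and 148.8 CPM in the DMSO libraries and 151.0, 157.4 and 142.9 CPM in the S767 libraries. It had the most reads of the 10 genes, and its libraries spanned 1.11-fold in DMSO, the least of the 10, and 1.1-fold in S767, where *KDM3A*, *BNIP3* and *P4HA1* spanned less. The groups overlapped, and the fitted log2 fold change was -0.02 (SE 0.0527). Over all settings tried it stayed between -0.05 and 0.02.

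*P4HA1* (ENSG00000122884.12; chr10:73007217-73096974, minus strand) encodes the catalytic subunit of collagen prolyl 4-hydroxylase, another iron- and 2-oxoglutarate-dependent enzyme. It was at 38.9, 54.1 and 47.0 CPM in the DMSO libraries and 41.2, 38.2 and 39.0 CPM in the S767 libraries. The S767 libraries lay close together around DMSO replicate 1, and DMSO replicates 2 and 3 lay above them. S767 was at 106% of DMSO in pair 1 and at 70.5% and 82.8% in pairs 2 and 3. The fitted log2 fold change was -0.24 (SE 0.104), and it was -0.10 without pair 2 and -0.39 without pair 1 in the fits with the pair as a term.

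**Figure D2:**
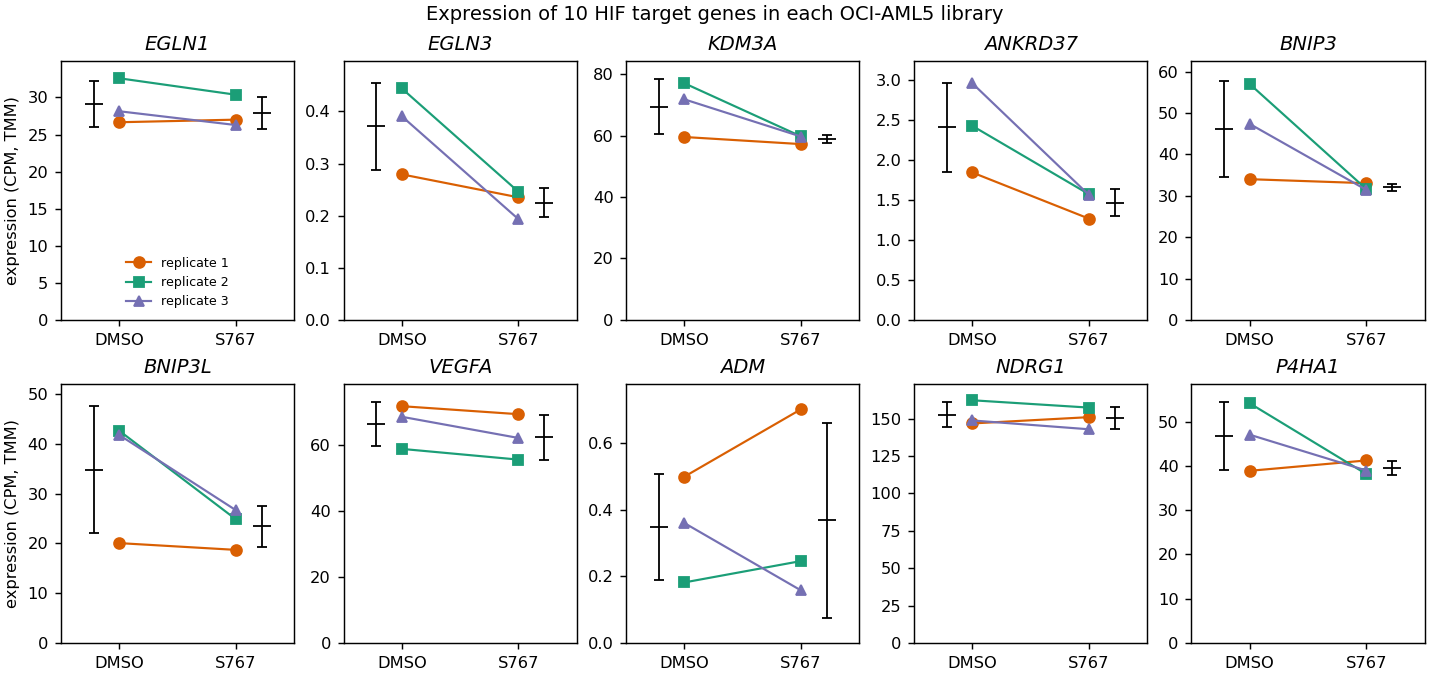
Expression of the 10 genes in CPM (TMM-scaled, linear axes from 0), with 1 panel per gene; lines join the DMSO and S767 libraries of 1 replicate number, and the bars beside them give the mean ± SD of the 3 libraries. For *BNIP3*, *KDM3A* and *P4HA1* the lines of replicates 2 and 3 descend from a high DMSO value to near the level of replicate 1, which is almost flat. For *BNIP3L* they also descend, but end at 24.9 and 26.7 CPM in S767, above replicate 1 at 18.7 CPM.

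Several of these genes differed among the DMSO libraries themselves. DMSO replicate 2 exceeded DMSO replicate 1 by 1.68-fold for *BNIP3*, 2.13-fold for *BNIP3L*, 1.59-fold for *EGLN3*, 1.39-fold for *P4HA1*, 1.32-fold for *ANKRD37* and 1.29-fold for *KDM3A*. *EGLN1* and *NDRG1*, at 1.22- and 1.11-fold, differed less, and *VEGFA* and *ADM* were lower in replicate 2, at 0.82 and 0.364 of replicate 1. DMSO replicate 2 exceeded DMSO replicate 1 by a log2 difference over 0.4 for 4 of the 10 genes and for 12% of all genes tested. DMSO replicate 3 exceeded DMSO replicate 1 by as much for 4 of the 10 genes, and for 9.78% of all genes tested. These counts leave out genes that were lower than in replicate 1, such as *ADM*. Since the DMSO libraries received solvent alone, these differences were present without S767, and what set the DMSO libraries apart was not tested.

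Within pairs, the median log2 difference between S767 and DMSO over the 10 genes was -0.05 in pair 1, -0.44 in pair 2 and -0.43 in pair 3. Over all genes tested it was 0.0056, 0.001 and 0.0011. In pair 1 a log2 difference under -0.4 was found for *ANKRD37* alone among the 10, and for 6.04% of all genes tested. In pair 2 it was found for 5 of the 10 and 10.4% of all genes tested, and in pair 3 for 5 of the 10 and 8.36% of all genes tested. *EGLN3*, *KDM3A*, *ANKRD37*, *BNIP3*, *BNIP3L* and *VEGFA* were lower in S767 in all 3 pairs, a pattern shown by 17.8% of all genes tested, and 0 of the 10 were higher in all 3 pairs, beside 19.9%. *EGLN3*, *ANKRD37* and *BNIP3* had every S767 library below every DMSO library, as did 4.08% of all genes tested, and 0 of the 10 had every S767 library above every DMSO library, beside 5.12%. The comparison was used to choose the genes, and nothing is read from these counts.

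**Figure D3:**
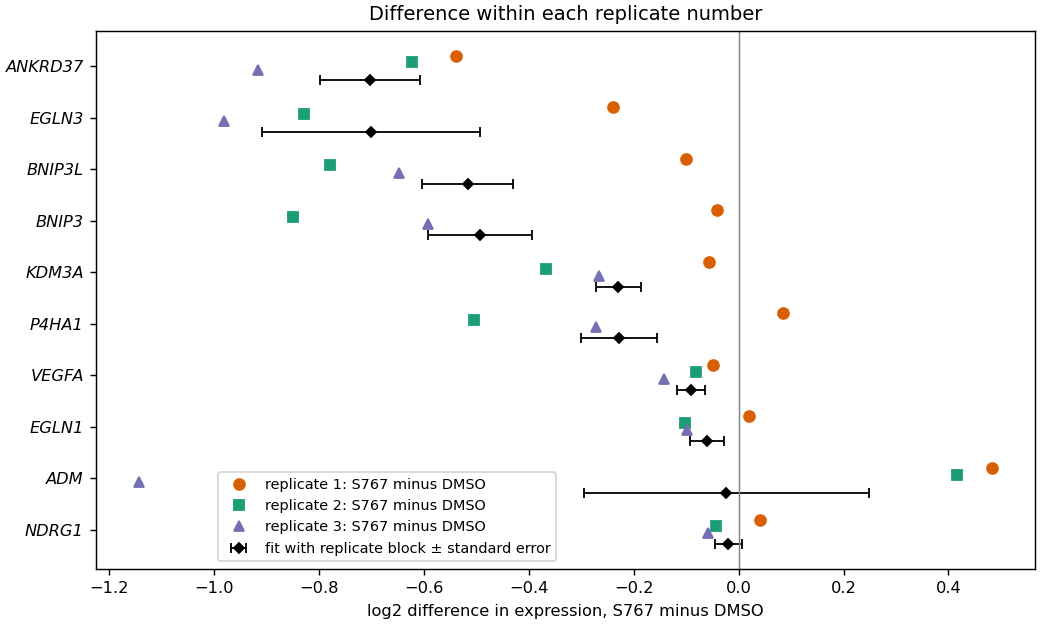
Log2 difference in expression between S767 and DMSO for each gene, with 1 coloured point per replicate number and a black diamond for the fitted value with the pair as a term, its bar being ± 1 SE; values left of 0 are lower in S767. The replicate 1 points lie nearest to 0 for most genes, -0.04 for *BNIP3* and -0.10 for *BNIP3L*, and the points of *ADM* fall on both sides.

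The following counts rest on the comparison by which the genes were chosen, and they restate it without testing it. The study's limits for up-regulated genes, an unadjusted P value under 0.05 together with a log2 fold change over 0.4, were applied here in both directions. By these limits *EGLN3*, *ANKRD37* and *BNIP3* counted as down-regulated, beside 0.796% of all genes tested. None of the 10 counted as up-regulated, beside 0.429% of all genes tested. After Benjamini-Hochberg adjustment in edgeR's quasi-likelihood test none of the 10 passed 0.05, and neither did any other gene in the lower direction (0%), while 0.00483% of genes passed in the higher direction. With the replicate number as a block, *KDM3A*, *ANKRD37*, *BNIP3* and *BNIP3L* passed as lower, beside 1.08% of all genes tested, and none passed as higher, beside 2.16%. DESeq2 with the block counted 1 of the 10 as lower, beside 630 of all genes in either direction. Without pair 2 the edgeR fit with the block counted 0 of the 10, beside 25 of all 20725 genes tested in either direction. Without pair 1 it counted 7 of the 10, beside 1993 of all genes, and without pair 3 it counted 5, beside 618. At an unadjusted P value under 0.05 the fit without the block counted 5 of the 10, beside 3.53% of all genes tested, and the fit with the block 7, beside 16.8%. Nothing is read from these counts either.

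Genes around these targets were examined as 5 lists outside the 10, covering the HIF machinery, further hypoxia-induced genes, mitophagy, VEGF and adrenomedullin signaling, and paralogs. The lists too were chosen with earlier results of these data known. Their counts and adjusted p values are therefore a description and no independent support. In the fit without the block no gene of any of the 5 lists passed an adjusted p of 0.05. Counts at an unadjusted P value under 0.05 are to be set beside 3.53% of all genes tested without the block and 16.8% with it. Of 15 genes for HIF subunits and oxygen sensing, 13 were tested, with a median log2 fold change of -0.01, and at an unadjusted P value under 0.05 the fit without the block counted 0 and the fit with it 2. *HIF1A*, the oxygen-regulated alpha subunit, was at 65.3 ± 2.47 CPM in DMSO and 63.9 ± 2.8 CPM in S767 (SD, n = 3), a log2 fold change of -0.03 (SE 0.0475). *ARNT*, its constitutive partner, had a log2 fold change of 0.02 (SE 0.0402), and *VHL*, which recognises hydroxylated HIF alpha, one of -0.01 (SE 0.0364). *EGLN2* and *HIF1AN*, the other hydroxylases acting on HIF alpha, had log2 fold changes of 0.04 (SE 0.0995) and 0.02 (SE 0.0359). *EPAS1*, which encodes HIF-2 alpha, was barely detected, at 33 to 54 counts per library.

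*CITED2*, which encodes a protein that competes with HIF alpha for the coactivators p300 and CBP and is itself a HIF target, was at 285.2, 373.7 and 263.6 CPM in the DMSO libraries and 268.9, 265.6 and 218.6 CPM in the S767 libraries. It fell in the fit with the block, by 0.28 on the log2 scale (SE 0.0522, edgeR adjusted p = 0.0141), and was the only one of the 13 to pass there. The adjusted p was 1.0 without the block, 0.231 by DESeq2 with the block and 0.264 without pair 2. Its groups overlapped.

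Among 27 other hypoxia-induced genes outside glycolysis, 23 were tested, with a median log2 fold change of -0.08, and 20 were below 0 and 3 above. The median within pairs was 0.02 in pair 1, -0.11 in pair 2 and -0.10 in pair 3. At an unadjusted P value under 0.05 the fit without the block counted 2 of the 23 (8.7%), and the fit with it 10 (43.5%). In the fit with the block *MIR210HG* and *STC2* fell. *MIR210HG*, the host transcript of the hypoxia-induced microRNA miR-210, was at 0.169, 2.38 and 1.3 CPM in the DMSO libraries and 0.168, 0.313 and 0.193 CPM in the S767 libraries. As with *BNIP3L*, DMSO replicate 1 lay at the level of the S767 libraries. Its log2 fold change with the block was -2.25 (SE 0.35, edgeR adjusted p = 0.00606), and the adjusted p was 1.0 without the block and 0.3 without pair 2, and DESeq2 with the block gave none. *STC2*, which encodes the secreted glycoprotein stanniocalcin 2, was lower in all 3 pairs by a small amount, 47.8 ± 3.64 CPM in DMSO and 43.6 ± 3.44 CPM in S767, with a log2 fold change of -0.13 (SE 0.026, edgeR with the block, adjusted p = 0.0183, and 0.349 without pair 2).

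The partners of *BNIP3* and *BNIP3L* in mitochondrial clearance did not pass the adjusted test in either edgeR fit. Of 22 mitophagy receptors and autophagy adaptors, 21 were tested, with 11 below 0 and 10 above and a median log2 fold change of -0.0002. At an unadjusted P value under 0.05 the fit without the block counted 1 of them and the fit with it 5. The smallest P values with the block were those of *CALCOCO2*, an autophagy receptor also called NDP52, with a log2 fold change of -0.26 (SE 0.0643, adjusted p = 0.0516), and of *RB1CC1*, which encodes the FIP200 subunit of the ULK1 complex, with -0.08 (SE 0.0225, adjusted p = 0.0777). By limma-voom with the block *CALCOCO2* passed, at an adjusted p of 0.047.

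Of 14 ligands and receptors of the VEGF and adrenomedullin systems, only 7 had enough counts to be tested. *VEGFC*, *FLT1*, *KDR*, *CALCRL*, *RAMP1*, *RAMP2* and *RAMP3* were below the filter. The VEGF receptor genes *FLT1* and *KDR* and the adrenomedullin receptor genes thus had few or no reads in these cells. *FLT4*, another VEGF receptor gene, was tested, at 2402 to 4008 counts per library and a log2 fold change of 0.04 (SE 0.0555). The median log2 fold change of the 7 tested genes was 0.01. At an unadjusted P value under 0.05 the fit without the block counted 1 of them and the fit with it 4. *NRP1*, a co-receptor for VEGF, rose in the fit with the block, from 15.4 ± 1.29 CPM in DMSO to 17.2 ± 0.785 CPM in S767, with a log2 fold change of 0.16 (SE 0.0366, edgeR adjusted p = 0.0379). Its adjusted p was 1.0 without the block, 0.0514 by DESeq2 with the block and 0.412 without pair 2. The DMSO and S767 values of *NRP1* overlapped.

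Of 13 paralogs and partners of *NDRG1*, *P4HA1* and *KDM3A*, 12 were tested, with 6 below 0 and 6 above and a median log2 fold change of -0.01. At an unadjusted P value under 0.05 the fit without the block counted 0 of them and the fit with it 3. The lysyl hydroxylase genes *PLOD1* and *PLOD3*, which like *P4HA1* encode collagen-modifying enzymes, changed in opposite directions in the fit with the block. *PLOD1* fell by 0.23 on the log2 scale (SE 0.0463, edgeR adjusted p = 0.0226) and *PLOD3* rose by 0.12 (SE 0.0248, adjusted p = 0.0259). Without pair 2 the adjusted p values were 0.367 and 0.408, and without the block both were 1.0.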

How the data were processed

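RNA-seq libraries of OCI-AML5 cells were assigned to DMSO or S767 from the treatment given in their labels. According to their methods, the authors used Trimmomatic for trimming, STAR for alignment and RSEM for gene quantification. The submitters' processing notes name STAR 2.7.1a, RSEM 1.2.28 and GRCh38, the methods name another RSEM version, and the annotation release is not given in the sources used here. The authors deposited raw fragment counts per gene (unstranded and for each strand), of which the reverse-strand column, the strand that the stranded kit reads, was used, and RSEM tables with expected counts, rounded for testing, and TPM. Summary lines that name no gene, 20.3% of fragments, were left out. The 10 genes and all lists were chosen with earlier results of these data known. Named outside the 10 were 6 HIF genes (*HIF1A*, *EPAS1*, *ARNT*, *VHL*, *EGLN2*, *HIF1AN*) and, of each list, the genes past an adjusted p of 0.05 with or without the block, at most 5, or else the 2 with the smallest P with the block. Counts were normalized with TMM, filtered with filterByExpr (minimum count 10) and fitted with edgeR 4.0.16 (quasi-likelihood, R 4.3.3) over 20725 genes, with no block and Benjamini-Hochberg adjustment; SE is the log2 fold change over the root of F. CPM used the TMM-scaled library size, and pair differences a prior count of 2. The replicate number pairs the libraries by the correlations of their deviations (0.779, 0.872 and 0.754), not by the labels, so block values are given. The model was also run on simulated counts, whose outcome is not given here and from which nothing is read. Alternatives were limma-voom (limma 3.58.1, the study's tool), DESeq2 1.42.0, other size factors and filters, RSEM and unstranded counts, log2(TPM + 1) and log2(TPM + 0.1), the block, and leaving out libraries or pairs; those that leave out a pair or add the block to limma-voom or DESeq2 were chosen after seeing the data. Counting precision follows from 149994700 to 258029564 gene counts per library. Gene positions are those of GENCODE 29, matched by identifier without its version, which differs for some genes. Protein sequences were not analysed here.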

Additional observations from a re-analysis of the deposited data

How the results depend on the processing

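Depth was low for *EGLN3* and *ADM*, with at most 101 and 167 counts in a library. *ADM* also spread widely between libraries, 2.75-fold in DMSO and 4.45-fold in S767. Elsewhere the spread between libraries was the limit. With the replicate block, 670 genes in all passed the adjusted p instead of 1, and 4 of the 10 genes, 1 HIF subunit or oxygen-sensing gene, 2 other hypoxia genes, 1 VEGF or adrenomedullin gene and 2 paralogs instead of 0. By the limits of P and fold, 142 genes were then higher (89 without the block) and 270 lower (165). With the block and library sizes alone the numbers were 617 genes, 4, 1, 2, 1 and 2, with 139 higher and 274 lower.

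The adjusted p was passed by 25 genes with DESeq2, 9 with no filter on low counts, 0 on log2(TPM + 1) and 0 on log2(TPM + 0.1). The higher genes by the limits were 46 with DESeq2, 202 with no filter and 18 on log2(TPM + 1), and the lower genes 85, 361 and 18. Limma-voom with the block passed 609 genes (143 higher and 265 lower by the limits), 4 of the 10 genes, 1 HIF, 2 hypoxia, 1 mitophagy, 1 VEGF or adrenomedullin and 2 paralog genes. DESeq2 with the block passed 630 (40 higher, 67 lower), 1 of the 10, 2 hypoxia (*STC2* and *FUT11*, with no adjusted p for *MIR210HG*), 1 VEGF or adrenomedullin (*NRP2*, lower, in place of *NRP1*) and 2 paralog genes. *FLT4*, *FUT11* and *NRP2* are named with their values in view.

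The block without pair 1 passed 1993 genes, 7 of the 10, and 1 HIF, 11 hypoxia, 5 mitophagy, 2 VEGF or adrenomedullin and 5 paralog genes, with 183 higher and 453 lower by the limits. Without pair 2 it passed 25, with 160 higher, and the VEGF and adrenomedullin median was -0.0817. Without pair 3 it passed 618, 5 of the 10, and 1 HIF, 5 hypoxia, 1 VEGF or adrenomedullin and 1 paralog gene, with 185 higher and 272 lower. The cause was not tested.

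The HIF list median of -0.0139 became -0.0059 with RSEM counts, -0.0231 with strand ignored, -0.0233 on log2(TPM + 1), -0.0256 on log2(TPM + 0.1), -0.0229 without pair 1 and -0.0247 without pair 3. The VEGF and adrenomedullin median of 0.0055 was -0.3058 with no filter, which adds the genes with few reads.

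Leaving out each library in turn without the block, 1 gene passed the adjusted p each time and 0 of any list. Higher genes by the limits ranged from 77 to 138 (the latter without S767 replicate 1) and lower genes from 99 (without DMSO replicate 3) to 274 (without S767 replicate 1), with 2 to 4 of the 10 among them. The medians ranged from -0.35 to -0.18 for the 10 genes, -0.0273 to 0.003 for HIF, -0.1022 to -0.046 for hypoxia, -0.0305 to 0.0072 for mitophagy, -0.1055 to 0.0339 for VEGF and adrenomedullin, and -0.0215 to 0.0071 for paralogs. No called value turned in direction; the fold changes of *EGLN1*, *ADM* and *NDRG1*, which were called in no fit with all 6 libraries, took both signs among the settings.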

Other observations

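Protein-coding genes outside the 10 and the lists, with a mean of at least 1 CPM, were ranked by their fitted decrease with the replicate block among those past an adjusted p of 0.05 (edgeR). This choice was made with their values in view, and the adjusted p of each was 1.0 without the block. Only decreases were ranked, though in the fit with the block 2.16% of all genes tested passed as higher and 1.08% as lower. *PFKFB4*, a regulator of glycolysis, fell by 1.77 on the log2 scale (SE 0.384, adjusted p = 0.0282), and *ALDOC*, a glycolytic aldolase, fell by 1.09 (SE 0.189, adjusted p = 0.00997). *PFKFB4* was at 1.96, 11.6 and 6.56 CPM in the DMSO libraries and at 2.08, 1.42 and 1.34 CPM in the S767 libraries, and *ALDOC* at 5.12, 12.04 and 18.7 CPM and at 4.63, 3.99 and 6.8 CPM. In both genes DMSO replicate 1 lay below the other DMSO libraries, as in *BNIP3L*.

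*CCL3*, a chemokine, fell by 1.51 (SE 0.314, adjusted p = 0.0239), *ENPP2*, which encodes autotaxin, fell by 1.08 (SE 0.115, adjusted p = 0.000496), *EGR1*, an immediate early transcription factor, fell by 1.03 (SE 0.198, adjusted p = 0.0161), and *C3AR1*, the receptor for complement C3a, fell by 0.89 (SE 0.198, adjusted p = 0.0314). *PFKFB4* and *CCL3* were lower in S767 in 2 of the 3 pairs and the other 4 in all 3. As in *PFKFB4* and *ALDOC*, DMSO replicate 1 lay below the other DMSO libraries in *CCL3*, *ENPP2*, *EGR1* and *C3AR1*, so this was not particular to the glycolysis genes.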
